A study of Homo sapiens with 23 samples.

Results

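The genes described here are 47 factors that build ribosomes or shape the nucleolus. They form a list of named genes, defined by their known roles in ribosomal RNA transcription, processing and subunit assembly. No level or fold change is part of that definition, but the list was chosen with earlier results of these data known. The first count table lists 61806 genes, and the table of the deep libraries lists 42901, and both hold all 47. All 47 had enough reads to be tested in every comparison. They were sorted into 7 roles: RNA polymerase I transcription (5 genes), box C/D snoRNP (3), box H/ACA snoRNP and its assembly (5), small subunit processome (13), late maturation of the 40S subunit (7), assembly of the 60S subunit (10) and abundant nucleolar proteins (4).

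Ribosomes are put together in the nucleolus, where RNA polymerase I copies the ribosomal DNA into a long precursor. Small nucleolar RNAs, held in particles with proteins such as fibrillarin or dyskerin, guide methylation and pseudouridylation of that precursor, and a large complex, the small subunit processome, folds and cleaves it. The precursors of the 40S and 60S subunits then part, are trimmed by further helicases and GTPases, and leave for the cytoplasm. Growing cancer cells make many ribosomes, and the transcription factor MYC is a well-known activator of these genes.

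All libraries came from A549, an established human lung adenocarcinoma line, and held total RNA depleted of ribosomal RNA. THUMPD3, a methyltransferase that places N2-methylguanosine in tRNA, was depleted by an siRNA (siD3 #3, against siControl) or by either of 2 doxycycline-inducible shRNAs (shD3 #1 against sh1Control, shD3 #4 against sh4Control), so that each knockdown had its own controls. The siRNA cells were harvested on day 5 and the shRNA cells on day 6. Controls are labelled wild type and the others as *THUMPD3* knockdown, in 3 libraries a group except siControl, of which 2 were analysed here, and a further 6 libraries of shD3 #1 and sh1Control were sequenced more deeply (called deep below, with no harvest day given). The shRNAs are delivered by lentivirus, with puromycin selection of the cells. By the study's methods, the controls are the untreated condition of their own type of knockdown. Whether the deep libraries share cultures with the first shD3 #1 libraries is not given in the sources used here. The labels call the replicates biological.

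Library totals ranged from 9854294 to 22101059 counts in the first table, the lowest in shD3 #1 replicate 3, and from 27285889 to 59974740 in the deep table. As a check of the labels, *THUMPD3* was read first: no knockdown library reached the level of a control, and its log2 fold change was -2.54 with siD3 #3, -1.67 with shD3 #4, -0.97 with shD3 #1 and -1.01 in the deep table. The epithelial markers *KRT8*, *KRT18*, *KRT7*, *KRT19*, *EPCAM*, *CDH1* and *EGFR* passed the count filter in every comparison. So did *COL1A1*, a marker of other cells, so that passing the filter does not identify the cells. The epithelial markers were not constant: in shD3 #1 their log2 fold changes ran from -1.39 for *CDH1* to 1.95 for *KRT19*. Of 7 markers of other cells, *CD3E* was at 0 in every library of the first table, *PTPRC*, *HBB* and *PECAM1* reached at most 10 counts in any library, *CDH5* 28, *ALB* 48 and *COL1A1* 1004. The summed raw counts of these 7 were 71 to 130 in sh4Control and 147 to 208 in shD3 #4, 54 to 55 in siControl and 107 to 161 in siD3 #3, 86 to 127 in sh1Control and 74 to 168 in shD3 #1, and 433 to 481 in the deep controls and 746 to 1024 in the deep knockdown. These sums are not scaled to library size, and the shD3 #1 libraries held fewer counts than their controls at the median (14430162 against 19962085, deep 30160892 against 55784748). Scaled, the log2 fold change of *COL1A1* was 0.74 in shD3 #1, 0.37 in shD3 #4, 0.72 in siD3 #3 and 1.72 deep. Its groups overlapped only in shD3 #4. The part of these markers in the results was not tested. Of the siD3 #3 libraries, replicate 3 stood apart. Its counts differed from those of replicates 1 and 2 with a chi-square of 30.4 and 34.6 per degree of freedom, against 3.76 between replicates 1 and 2, and shD3 #1 replicate 3 stood apart less (6.35 and 9.09, against 1.82). Replicate 3 of the deep shD3 #1 libraries stood apart too (16.4 and 12.9, against 5.27). In shD3 #4, replicates 1 and 2 differed from each other by 15.1, and each was nearer to replicate 3 (4.47 and 6.70). The 2 siControl libraries differed from each other by 10.97. Every fit below that leaves out either of them rests on 1 control library.

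Of the 47 promoters, 41 were found in RefSeq's promoter sequences (build GRCh38.p14), and the 250 bases before each start were searched on both strands for 3 sets of letters. The ETS-type letters CCGGAAG (or CTTCCGG) stood in 14 of 41 (34.15%), against 11.8% of 15843 coding promoters of the same length. The E-box CACGTG, which MYC and its partners can bind, stood in 5 of 41 (12.2%, against 7.839%), and the NRF1 core GCATGCG (or CGCATGC) in 5 (12.2%, against 4.507%). No search counted 1 motif as another, although matches could lie side by side. Windows of 60 bases are shown for 4 genes on which later results turn. *FBL* and *UTP18* were lower in every comparison, *UTP18* by at least 1.5-fold only in shD3 #1 and siD3 #3. *UTP3* was higher with the siRNA, and *RRP9* differed between the shRNAs. Capitals mark the ETS letters. The E-box of *UTP18* opens its window, in lower case.
FBL (chr19:39846539-39846598, minus strand): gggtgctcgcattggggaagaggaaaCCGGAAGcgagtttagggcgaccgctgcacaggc
UTP18 (chr17:51260457-51260516, plus strand): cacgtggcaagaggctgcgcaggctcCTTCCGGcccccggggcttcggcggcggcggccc
UTP3 (chr4:70688472-70688531, plus strand): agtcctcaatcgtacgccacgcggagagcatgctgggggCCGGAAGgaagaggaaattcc
RRP9 (chr3:51942095-51942154, minus strand): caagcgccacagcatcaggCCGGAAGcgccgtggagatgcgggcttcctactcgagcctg
The median log2 fold change of the 14 genes with these letters and of the 27 without them was 0.072 and -0.13 in shD3 #1, -0.30 and -0.37 in shD3 #4, -0.47 and -0.36 in siD3 #3, and -0.22 and -0.22 in the deep libraries. The order of these medians was not the same in every comparison, and no difference between the sets was tested. A match of letters is a description of the promoter and not a site of binding.

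After depletion of THUMPD3, most of the 47 genes were lower with shD3 #4 and with siD3 #3. In the first shD3 #1 libraries 16 were called lower and 9 higher, near or below the shares of all genes (27.8% and 28.6%). In the deep libraries of the same shRNA, 28 were called lower and 4 higher. The test was edgeR's quasi-likelihood test, fitted for each comparison over all genes that passed the count filter. A gene was called at a Benjamini-Hochberg adjusted p under 0.05, and past both thresholds where it also changed by at least 1.5-fold, a log2 fold change of just over 0.58. Levels are counts scaled to a common library size by TMM (cpm), fold changes are those of the knockdown over its controls on the log2 scale, and errors of fold changes are SE. In bulk RNA, fewer cells expressing a gene and less of its RNA per cell cannot be told apart.

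In shD3 #4, 37 of the 47 (78.7%) were lower at the adjusted p, where 20.8% of all 16493 genes tested were, and 0 were higher (20.0% of all genes). The median log2 fold change was -0.37, against 0.0079 over all genes tested. Past both thresholds there were 5 (4.49% of all genes): *FBL*, *UTP15*, *PES1*, *BOP1* and *NOC2L*. The fall was thus widespread and shallow. For 38 genes all shD3 #4 libraries lay below all sh4Control libraries (24.7% of all genes), and for 0 genes they lay above (24.7%). Without sh4Control replicate 3, 8 genes were lower past both thresholds, as were 879 of all 16963 genes tested. Without shD3 #4 replicate 1 there were 33 lower at the adjusted p and 4 past both thresholds (2991 and 712 of all 16808 genes). Without shD3 #4 replicate 2 there were 38 and 6 (3117 and 773 of all 16930 genes).

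In siD3 #3, 30 of the 47 (63.8%) were lower at the adjusted p (16.4% of all 17032 genes tested) and 1, *UTP3*, was higher (16.6%). The median was -0.45, against 0.026 over all genes. Past both thresholds, 15 were lower (9.42%) and 0 higher (12.5%). The libraries did not overlap for 38 genes that were lower (29.5%) and 1 that was higher (30.5%). Leaving out each library in turn put the median between -0.49 and -0.39. Without siD3 #3 replicate 3, the library that stood apart, 33 were lower at the adjusted p, where 3464 of all 16459 genes tested were. Past both thresholds 16 were lower there (1795 of all genes).

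In shD3 #1, 16 of the 47 (34.0%) were lower (27.8% of all 16456 genes) and 9 were higher (28.6%). The median was 0.00057, against -0.0061 over all genes. Only 4 passed both thresholds (14.6%), all lower: *NOLC1*, *UTP18*, *NOC2L* and *FBL*. The libraries did not overlap for 16 genes that were lower (31.2%) and 10 that were higher (30.8%). In 1 fit of all 17 libraries the 9 that were higher became 5 (4424 of all 18672 genes were higher there). Without shD3 #1 replicate 3, 18 were lower and 12 higher, where 4949 and 5074 of all 17126 genes were. The share that was lower was thus near that of all genes, and the share that was higher lay below it.

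In the deep libraries of shD3 #1, 28 were lower (59.6%, against 31.5% of all 18763 genes) and 4 higher (31.1%), with a median of -0.22 against -0.015 over all genes. Past both thresholds, 4 were lower (14.1%). The libraries did not overlap for 28 that were lower (34.0%) and 4 that were higher (33.2%). Without deep sh1Control replicate 3, only 2 were higher at the adjusted p (5563 of all 18731 genes). Without deep shD3 #1 replicate 3, the library that stood apart, 27 were lower and 4 higher, and 5 were lower past both thresholds. Of all 19706 genes in that fit, 5815 were lower, 5701 higher and 2787 lower past both thresholds.

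**Figure D1:**
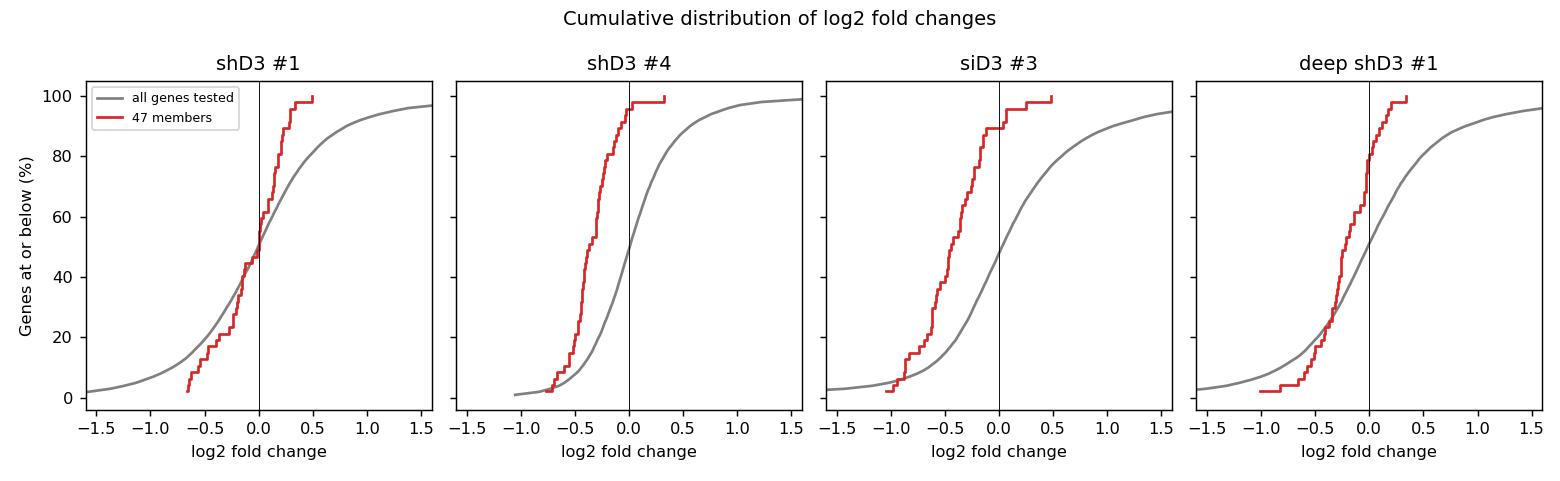
Cumulative share of genes (vertical axis, %) at or below each log2 fold change (horizontal axis) for the 47 genes (red) and all genes tested (grey, drawn at whole percentiles), in each comparison. The red curve lies to the left of the grey over most of its course in shD3 #4 and siD3 #3 (medians -0.37 and -0.45), and crosses it near 0 in shD3 #1.

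**Figure D2:**
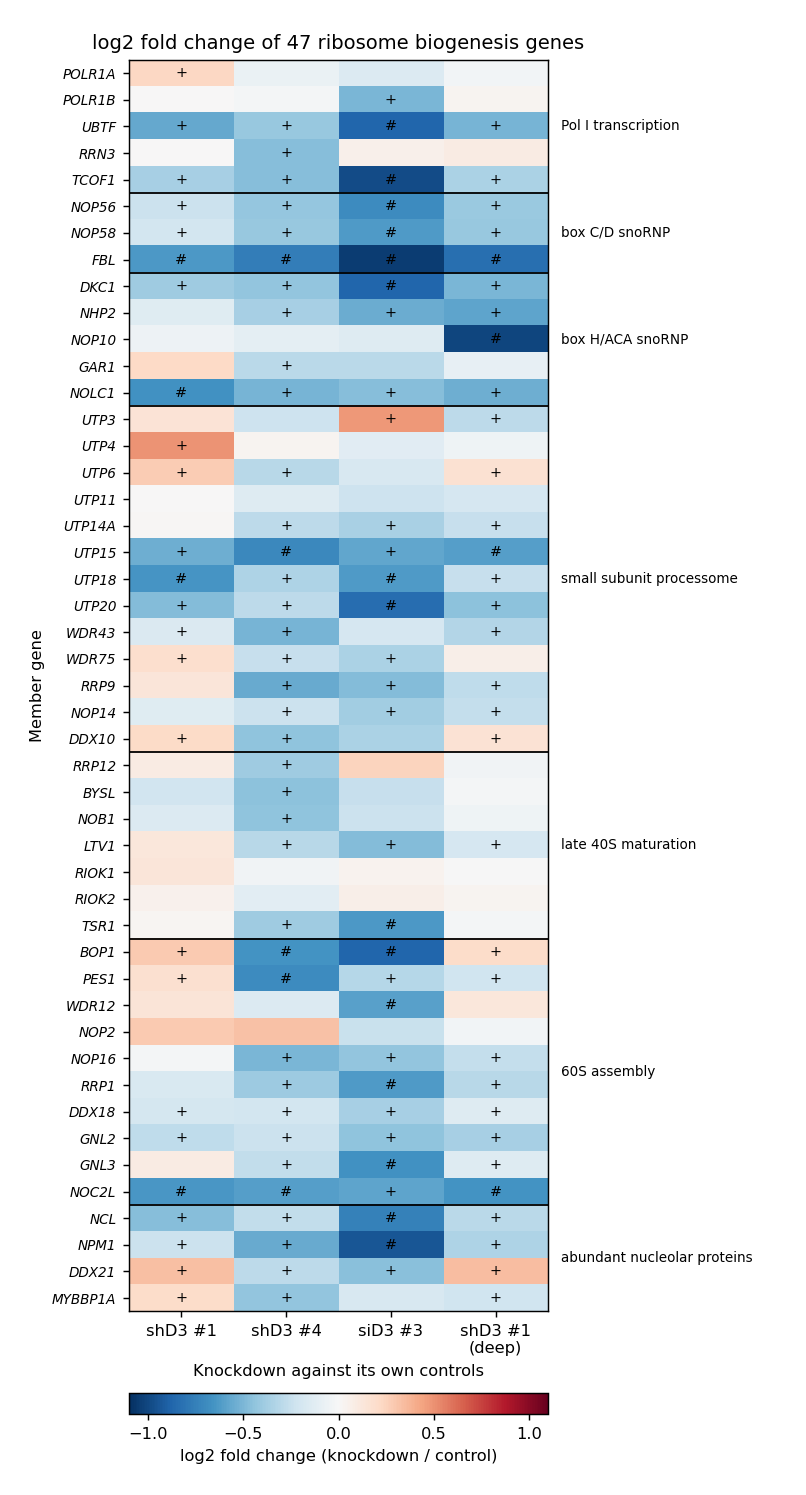
The log2 fold change of each of the 47 genes (rows, by role) in each knockdown against its own controls (columns). A plus sign marks an adjusted p under 0.05, and a hash sign marks genes that also changed by at least 1.5-fold. *FBL* carries the hash in every column, and *UTP3* is the darkest red of the siD3 #3 column.

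Of the 47, 15 were lower at the adjusted p in shD3 #1, shD3 #4 and siD3 #3 alike, and the same 15 were lower in the deep libraries: *DDX18*, *DKC1*, *FBL*, *GNL2*, *NCL*, *NOC2L*, *NOLC1*, *NOP56*, *NOP58*, *NPM1*, *TCOF1*, *UBTF*, *UTP15*, *UTP18* and *UTP20*. Of all 15656 genes tested in the first 3 comparisons, 6.14% were lower in each, and of the 13539 that could be matched to the deep table, 5.79% were lower in all 4. The 15 held all 3 box C/D proteins and at least 1 gene of every role but late 40S maturation. No member was higher in all of the first 3 comparisons (0 of 47, where 3.35% of all genes were) or in all 4 (3.39% of all genes). Over 42 alternative fits of the 4 comparisons all 15 log2 fold changes stayed negative. In these fits 9 genes kept their adjusted p under 0.05 throughout, whereas *DDX18*, *GNL2*, *NCL*, *NOLC1*, *NOP58* and *NPM1* missed it in at least 1.

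Among the box C/D proteins, fibrillarin (*FBL*; ENSG00000105202.9, chromosome 19, 39834458 to 39846379, minus strand), the methyltransferase of these particles, was the lowest of all 47 genes in shD3 #4 and siD3 #3. Its levels were 72.1, 62.7 and 64.7 cpm in sh1Control and 47.5, 48.1 and 31.8 cpm in shD3 #1. They were 101, 87.2 and 78.95 cpm in sh4Control and 49.9, 56.6 and 50.7 cpm in shD3 #4. With the siRNA they were 62.97 and 62.97 cpm in siControl and 25.9, 31.9 and 33.7 cpm in siD3 #3. No knockdown library reached a control, and shD3 #1 replicate 3 was the lowest of its group. The deep libraries held 152, 155 and 152 cpm in deep sh1Control and 81.8, 83.6 and 93.5 cpm in deep shD3 #1, more than the first sh1Control libraries, in a table with its own gene list. The log2 fold change was -0.63 ± 0.11, adjusted p = 1.97e-04 in shD3 #1, -0.76 ± 0.078, adjusted p = 1.69e-08 in shD3 #4, -1.05 ± 0.12, adjusted p = 5.98e-04 in siD3 #3 and -0.83 ± 0.051, adjusted p = 3.68e-09 in the deep libraries. *FBL* was the only member past both thresholds in all of them, as 0.428% of all genes were. In shD3 #1 its log2 fold change was -0.48 without shD3 #1 replicate 3 and -0.56 without sh1Control replicate 1, which is under the fold threshold, with adjusted p of 2.00e-11 and 0.00376.

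The scaffold proteins that bind the same guide RNAs, *NOP56* and *NOP58*, were also lower, by less. *NOP56* stood at 164, 159.8 and 159 cpm in sh1Control and 139.7, 138 and 133 cpm in shD3 #1, at 172, 167 and 150.4 cpm in sh4Control and 115, 124 and 125 cpm in shD3 #4, and at 181 and 164 cpm in siControl and 94.7, 108 and 117 cpm in siD3 #3. All its knockdown libraries lay below all their controls. Its log2 fold changes were -0.23 ± 0.057, -0.43 ± 0.066, -0.69 ± 0.11 and, deep, -0.41 ± 0.048, with adjusted p of 0.00244, 1.09e-05, 0.00271 and 3.37e-06. *NOP58* stood at 99.6, 90.6 and 89.3 cpm in sh1Control and 79.1, 79.3 and 85.3 cpm in shD3 #1, at 97.5, 94.1 and 92.00 cpm in sh4Control and 67.99, 74.5 and 70.3 cpm in shD3 #4, and at 99.7 and 85.4 cpm in siControl and 57.3, 61.8 and 61.7 cpm in siD3 #3. Its groups did not overlap either. *NOP58* changed by log2 fold changes of -0.20 ± 0.066, -0.42 ± 0.064, -0.62 ± 0.097 and, deep, -0.42 ± 0.052 (adjusted p = 0.0174, 9.08e-06, 0.00257 and 6.30e-06). In siD3 #3 *NOP58* fell under the fold threshold, at -0.51, without siControl replicate 1 and at -0.57 without siD3 #3 replicate 1. In shD3 #1 its adjusted p missed 0.05 without sh1Control replicate 1 or without shD3 #1 replicate 1 or 2.

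Of the box H/ACA genes, dyskerin (*DKC1*), the pseudouridine synthase, was lower in every comparison. It stood at 93.7, 88.95 and 91.2 cpm in sh1Control and 67.4, 69.9 and 71.3 cpm in shD3 #1, at 93.2, 95.1 and 84.3 cpm in sh4Control and 62.8, 69.3 and 70.3 cpm in shD3 #4, and at 95.7 and 87.98 cpm in siControl and 45.3, 47.97 and 56.9 cpm in siD3 #3. The siD3 #3 libraries were the farthest from their controls. For *DKC1* the log2 fold changes were -0.39 ± 0.061, -0.43 ± 0.068, -0.88 ± 0.11 and, deep, -0.50 ± 0.054 (adjusted p = 4.72e-05, 1.30e-05, 0.00105 and 1.29e-06). *NOLC1*, a chaperone of both kinds of snoRNP that moves between nucleolus and Cajal bodies, was the lowest of the 47 in shD3 #1. It stood at 158, 161 and 162 cpm in sh1Control and 97.9, 107 and 98.8 cpm in shD3 #1, at 152, 172 and 159.7 cpm in sh4Control and 105, 121 and 114 cpm in shD3 #4, and at 187 and 163 cpm in siControl and 115, 131 and 134 cpm in siD3 #3. No groups overlapped. Its log2 fold changes were -0.66 ± 0.061, -0.51 ± 0.068, -0.47 ± 0.10 and, deep, -0.54 ± 0.043 (adjusted p = 1.45e-07, 1.42e-06, 0.0118 and 5.88e-08).

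The 3 small partners of dyskerin did less. *NHP2* was lower at the adjusted p in shD3 #4 (-0.37 ± 0.071, adjusted p = 1.62e-04), siD3 #3 (-0.54 ± 0.093, adjusted p = 0.00378) and the deep libraries (-0.58 ± 0.065, adjusted p = 2.15e-06), and was -0.13 ± 0.069, adjusted p = 0.115 in shD3 #1. *GAR1* stood at 7.89 to 9.60 cpm in sh1Control and 8.96 to 11.2 cpm in shD3 #1, with a log2 fold change of 0.22 ± 0.12, adjusted p = 0.133, and was lower at the adjusted p only in shD3 #4 (-0.30 ± 0.12). *NOP10* was at -0.058 ± 0.13, -0.10 ± 0.078 and -0.15 ± 0.086 in the first libraries, with no adjusted p under 0.05. In the deep libraries it fell from 29.2, 29.9 and 30.98 cpm to 13.9, 14.2 and 16.6 cpm, with a log2 fold change of -1.01 ± 0.070, adjusted p = 1.21e-08, the lowest of the 47 there. The first and deep shD3 #1 libraries thus gave different values for *NOP10*, and that difference was not tested.

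In the RNA polymerase I group, *UBTF*, which bends and opens the ribosomal DNA promoter, and *TCOF1* (treacle), which links the polymerase to rRNA processing, were lower in every comparison. *UBTF* stood at 149.5, 157 and 154 cpm in sh1Control and 105, 109 and 97.1 cpm in shD3 #1, at 160.0, 161 and 148 cpm in sh4Control and 114, 116 and 121 cpm in shD3 #4, and at 127 and 125 cpm in siControl and 69.9, 67.3 and 69.1 cpm in siD3 #3. Its libraries were tightly grouped and the knockdowns lay well apart from their controls. For *UBTF* the log2 fold changes were -0.56 ± 0.062, -0.41 ± 0.063, -0.87 ± 0.078 and, deep, -0.51 ± 0.045 (adjusted p = 1.28e-06, 8.71e-06, 1.67e-04 and 1.79e-07). *TCOF1* stood at 117, 111 and 114 cpm in sh1Control and 90.5, 91.1 and 82.5 cpm in shD3 #1, at 121, 120.2 and 123 cpm in sh4Control and 84.3, 89.04 and 89.9 cpm in shD3 #4, and at 123 and 110.2 cpm in siControl and 51.8, 54.8 and 70.4 cpm in siD3 #3. In siD3 #3, replicate 3 was the highest of the knockdown libraries, and it still lay below both controls. *TCOF1* changed by log2 fold changes of -0.37 ± 0.063, -0.47 ± 0.062, -0.98 ± 0.14 and, deep, -0.35 ± 0.048 (adjusted p = 1.12e-04, 1.13e-06, 0.00151 and 1.80e-05).

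The subunits of the polymerase itself gave no common pattern. *POLR1A*, its largest subunit, was higher in shD3 #1 (0.22 ± 0.055, adjusted p = 0.00269) and was -0.073 ± 0.064, -0.15 ± 0.11 and -0.026 ± 0.043 in the others, with no call. *POLR1B*, the next largest, stood at 53.5 and 49.3 cpm in siControl and 35.4, 36.9 and 36.5 cpm in siD3 #3, and was lower there (-0.50 ± 0.088, adjusted p = 0.00415). It stood at 49.97, 51.96 and 50.5 cpm in sh1Control and 54.1, 54.7 and 43.2 cpm in shD3 #1 and at 54.2, 52.1 and 51.02 cpm in sh4Control and 52.1, 49.4 and 53.1 cpm in shD3 #4, with overlapping groups and log2 fold changes of 0.0052 ± 0.082 and -0.025 ± 0.065. *RRN3*, the factor that brings the polymerase to the promoter, was lower in shD3 #4 (-0.47 ± 0.068, adjusted p = 4.00e-06) and was 0.0046 ± 0.070 in shD3 #1 and 0.060 ± 0.084 in siD3 #3. The deep table held only 10 to 37 counts a library for *RRN3*, against 752 to 1504 in the first table, so that its deep value (0.086 ± 0.36) is imprecise.

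The small subunit processome held 13 members, of which 10 fell and 0 rose with shD3 #4, 7 fell and 1 rose with siD3 #3, 4 fell and 4 rose with shD3 #1, and 8 fell and 2 rose in the deep libraries. Of all genes, 20.8% fell and 20.0% rose with shD3 #4, 16.4% and 16.6% with siD3 #3, 27.8% and 28.6% with shD3 #1, and 31.5% and 31.1% in the deep libraries, so that the shD3 #1 counts each way were near the background. *UTP15* and the WD-repeat protein *UTP18* belong to its core, and *UTP20* is a large scaffold that joins late. All of these were lower throughout. *UTP15* stood at 51.3, 53.6 and 51.9 cpm in sh1Control and 34.6, 34.7 and 39.1 cpm in shD3 #1, at 56.2, 54.2 and 50.1 cpm in sh4Control and 34.04, 31.7 and 32.4 cpm in shD3 #4, and at 57.3 and 57.2 cpm in siControl and 38.7, 36.1 and 40.6 cpm in siD3 #3. It was the second lowest of the 47 in shD3 #4. For *UTP15* the log2 fold changes were -0.54 ± 0.070, -0.71 ± 0.069, -0.57 ± 0.090 and, deep, -0.60 ± 0.073 (adjusted p = 7.18e-06, 7.24e-09, 0.00257 and 4.36e-06). The deep call of *UTP15* missed the fold threshold without deep sh1Control replicate 2 (-0.58) and without deep shD3 #1 replicate 1 (-0.52).

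*UTP18* stood at 63.7, 65.1 and 57.2 cpm in sh1Control and 38.8, 39.1 and 40.5 cpm in shD3 #1, at 69.3, 65.5 and 60.5 cpm in sh4Control and 54.2, 51.1 and 48.4 cpm in shD3 #4, and at 81.1 and 82.7 cpm in siControl and 52.2, 54.6 and 52.9 cpm in siD3 #3. No groups overlapped, and the shD3 #4 libraries were nearest to their controls. Its log2 fold changes were -0.65 ± 0.071, -0.34 ± 0.069, -0.62 ± 0.079 and, deep, -0.25 ± 0.061 (adjusted p = 9.94e-07, 2.39e-04, 9.85e-04 and 0.00246). *UTP20* stood at 143, 134 and 138 cpm in sh1Control and 97.6, 97.9 and 104 cpm in shD3 #1, at 133, 125 and 129 cpm in sh4Control and 106, 104 and 109 cpm in shD3 #4, and at 153 and 131 cpm in siControl and 76.3, 76.7 and 85.7 cpm in siD3 #3. It was the lowest of the processome members in siD3 #3. The log2 fold changes of *UTP20* were -0.48 ± 0.060, -0.28 ± 0.062, -0.83 ± 0.10 and, deep, -0.45 ± 0.052 (adjusted p = 5.13e-06, 5.77e-04, 8.54e-04 and 2.71e-06).

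Other processome members went their own way. *UTP3* was the only member to rise with the siRNA. It stood at 13.02 and 13.2 cpm in siControl and 17.03, 19.2 and 18.6 cpm in siD3 #3, a log2 fold change of 0.48 ± 0.12, adjusted p = 0.0166, and that call was lost without either siControl library or without siD3 #3 replicate 2. With the shRNAs it stood at 18.3, 17.5 and 19.9 cpm in sh1Control and 21.8, 20.7 and 19.2 cpm in shD3 #1 and at 16.7, 18.5 and 17.04 cpm in sh4Control and 13.8, 16.97 and 14.1 cpm in shD3 #4. Those groups overlapped, at 0.15 ± 0.084 and -0.22 ± 0.091, and the deep libraries gave -0.29 ± 0.086, adjusted p = 0.00962. *UTP4*, a core component, was the highest of the 47 in shD3 #1, at 22.4, 22.04 and 19.9 cpm in sh1Control and 29.1, 30.6 and 30.9 cpm in shD3 #1 (0.49 ± 0.075, adjusted p = 3.46e-05). In the deep libraries of the same shRNA it was -0.051 ± 0.072, adjusted p = 0.556, so the rise was not seen there. Its levels were 18.5, 17.8 and 20.8 cpm in sh4Control and 20.9, 18.3 and 18.99 cpm in shD3 #4 and 20.8 and 19.1 cpm in siControl and 16.6, 19.9 and 18.5 cpm in siD3 #3, both with overlap, at 0.030 ± 0.084 and -0.12 ± 0.12.

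Of the remaining 8, *WDR43* was lower in shD3 #1 (-0.16 ± 0.061), shD3 #4 (-0.51 ± 0.068) and the deep libraries (-0.32 ± 0.045), and was -0.19 ± 0.087 in siD3 #3 with an adjusted p of 0.136. *UTP14A* and *NOP14* were lower in shD3 #4 (-0.29 ± 0.069 and -0.24 ± 0.071), siD3 #3 (-0.36 ± 0.087 and -0.38 ± 0.11) and the deep libraries (-0.26 ± 0.052 and -0.26 ± 0.053). *RRP9*, which binds the U3 small nucleolar RNA, was lower in the same comparisons (-0.55 ± 0.092, -0.47 ± 0.11 and -0.28 ± 0.10) and was 0.14 ± 0.096 in shD3 #1. *UTP6*, *WDR75* and the helicase *DDX10* were higher in shD3 #1 (0.28 ± 0.068, 0.18 ± 0.076 and 0.21 ± 0.071) and lower in shD3 #4 (-0.31 ± 0.068, -0.25 ± 0.064 and -0.44 ± 0.078). *UTP11* passed no test, with an adjusted p of 0.0553 at the closest, in the deep libraries.

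Late maturation of the 40S subunit was the role with the smallest share of called genes in shD3 #1, siD3 #3 and the deep libraries. In shD3 #1, 0 of its 7 genes passed the adjusted p in either direction, where 27.8% of all genes fell and 28.6% rose. In shD3 #4, 5 were lower, from -0.30 for *LTV1* to -0.45 for *BYSL*, a factor of the pre-40S particle. In siD3 #3, 2 of the 7 were lower (16.4% of all genes), *LTV1* (-0.48 ± 0.14, adjusted p = 0.0345) and the GTPase-like *TSR1* (-0.63 ± 0.086, adjusted p = 0.00135), and in the deep libraries 1 (31.5% of all genes), *LTV1* (-0.19 ± 0.071). In GENCODE 44, 34.7% of the exonic bases of *LTV1* are shared with other genes on its strand (ENSG00000257065 and ENSG00000280148), so that reads there could be left uncounted. The kinases *RIOK1* and *RIOK2* passed no test. *RIOK2* stood at 30.3, 28.9 and 28.7 cpm in sh1Control and 29.5, 30.6 and 30.5 cpm in shD3 #1, at 30.97, 28.9 and 26.7 cpm in sh4Control and 27.1, 28.95 and 23.7 cpm in shD3 #4, and at 28.4 and 26.5 cpm in siControl and 27.4, 28.8 and 29.98 cpm in siD3 #3, with overlap each time and log2 fold changes of 0.044 ± 0.067, -0.12 ± 0.081 and 0.065 ± 0.099. *RRP12*, an export factor, stood at 58.4 and 46.4 cpm in siControl and 53.9, 55.6 and 77.3 cpm in siD3 #3. Replicate 3 of siD3 #3, the library that stood apart, was the highest of them, and the log2 fold change was 0.25 ± 0.18, adjusted p = 0.317, whereas in shD3 #4 it was lower (-0.39 ± 0.069, adjusted p = 5.16e-05), from 52.3, 54.2 and 60.3 to 42.6, 40.7 and 43.6 cpm, and in shD3 #1 it went from 57.9, 60.4 and 63.6 to 66.8, 67.2 and 58.95 cpm (0.090 ± 0.071).

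Among the 60S factors, *NOC2L* (ENSG00000188976.11, chromosome 1, 944203 to 959309, minus strand), a partner in pre-60S particles that also binds histones, fell by nearly the same amount in every comparison. It stood at 109, 106 and 104 cpm in sh1Control and 69.2, 71.4 and 63.9 cpm in shD3 #1, at 113, 111 and 109 cpm in sh4Control and 67.9, 77.5 and 73.8 cpm in shD3 #4, and at 106 and 95.1 cpm in siControl and 63.1, 70.5 and 68.3 cpm in siD3 #3. The deep libraries gave 67.3, 66.9 and 64.1 cpm in deep sh1Control and 40.7, 43.9 and 41.1 cpm in deep shD3 #1. No groups overlapped. The log2 fold changes were -0.64 ± 0.064, -0.60 ± 0.065, -0.58 ± 0.093 and, deep, -0.66 ± 0.051 (adjusted p = 3.99e-07, 4.49e-08, 0.00286 and 3.78e-08), the siD3 #3 value just under the fold threshold. In shD3 #4 the value without shD3 #4 replicate 1 was -0.55.

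The nucleolar GTPase *GNL2* and the helicase *DDX18* were lower throughout as well, by smaller amounts. *GNL2* stood at 53.8, 50.97 and 55.5 cpm in sh1Control and 46.00, 44.1 and 41.9 cpm in shD3 #1, at 53.2, 53.2 and 49.5 cpm in sh4Control and 39.5, 48.96 and 44.5 cpm in shD3 #4, and at 54.9 and 51.4 cpm in siControl and 37.8, 37.7 and 41.5 cpm in siD3 #3. Its groups did not overlap, and its log2 fold changes were -0.28 ± 0.068, -0.23 ± 0.074, -0.45 ± 0.092 and, deep, -0.37 ± 0.049 (adjusted p = 0.00248, 0.0129, 0.00841 and 1.20e-05). *DDX18* stood at 82.9, 81.6 and 80.6 cpm in sh1Control and 68.5, 68.4 and 78.7 cpm in shD3 #1, at 86.3, 84.2 and 76.7 cpm in sh4Control and 72.6, 71.6 and 70.5 cpm in shD3 #4, and at 89.5 and 88.95 cpm in siControl and 67.8, 67.8 and 72.6 cpm in siD3 #3. Of the 15 genes *DDX18* had the smallest fall in every comparison, at -0.19 ± 0.069, -0.20 ± 0.065, -0.36 ± 0.082 and, deep, -0.14 ± 0.050 (adjusted p = 0.0271, 0.0134, 0.0122 and 0.0249). Its calls were lost in every comparison when some single library was left out, among them sh1Control replicate 1, sh4Control replicate 2, siControl replicate 1 and deep sh1Control replicate 1.

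*BOP1*, *PES1* and *WDR12* together form the PeBoW complex, which is needed for 60S assembly, and they did not move as a unit. *BOP1* stood at 68.7, 63.1 and 68.2 cpm in sh1Control and 83.2, 82.4 and 78.9 cpm in shD3 #1, at 83.97, 78.5 and 71.5 cpm in sh4Control and 50.3, 45.98 and 51.7 cpm in shD3 #4, and at 71.03 and 70.9 cpm in siControl and 37.98, 35.98 and 42.4 cpm in siD3 #3. It was thus higher than its controls with shD3 #1 and lower with the other knockdowns, without overlap. The deep libraries gave 57.4, 59.9 and 57.4 cpm in deep sh1Control and 63.7, 72.3 and 65.4 cpm in deep shD3 #1, again higher. The log2 fold changes were 0.29 ± 0.064, adjusted p = 0.00108 in shD3 #1, -0.66 ± 0.071, adjusted p = 3.65e-08 in shD3 #4, -0.87 ± 0.096, adjusted p = 4.89e-04 in siD3 #3 and 0.20 ± 0.054, adjusted p = 0.00419 deep.

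*PES1* stood at 85.5, 81.2 and 84.6 cpm in sh1Control and 93.9, 91.2 and 100.1 cpm in shD3 #1, at 101, 97.3 and 90.6 cpm in sh4Control and 54.4, 63.7 and 61.3 cpm in shD3 #4, and at 96.4 and 96.9 cpm in siControl and 74.2, 79.3 and 79.2 cpm in siD3 #3. It rose slightly with shD3 #1 (0.18 ± 0.063, adjusted p = 0.0225) and fell with shD3 #4 (-0.69 ± 0.070, adjusted p = 1.40e-08) and siD3 #3 (-0.32 ± 0.081, adjusted p = 0.0201). In the deep libraries, at 58.3, 59.5 and 55.3 cpm in deep sh1Control and 48.1, 53.1 and 47.3 cpm in deep shD3 #1, it was lower (-0.22 ± 0.056, adjusted p = 0.00305), the opposite of the first shD3 #1 libraries. *WDR12* was lower only in siD3 #3 (-0.59 ± 0.091, adjusted p = 0.00225), and was 0.15 ± 0.067, -0.15 ± 0.068 and 0.12 ± 0.058 in the others.

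Of the other 60S factors, *GNL3* (nucleostemin) was lower in siD3 #3 (-0.66 ± 0.080, adjusted p = 7.50e-04), shD3 #4 (-0.27 ± 0.064) and the deep libraries (-0.15 ± 0.052), and was 0.088 ± 0.067 in shD3 #1. *NOP16* and *RRP1* were lower in the same comparisons, at -0.43 ± 0.096 and -0.62 ± 0.10 in siD3 #3. The siD3 #3 values of *WDR12*, *NOP58* and *RRP1* lay near the fold threshold, and leaving out 1 library took each below it (*WDR12* at -0.56 without siControl replicate 1, -0.57 without siD3 #3 replicate 2 and -0.58 without replicate 3, *RRP1* at -0.58 without siD3 #3 replicate 1 or 2). The rRNA methyltransferase *NOP2* was well counted only in the deep table. There it stood at 90.3, 89.5 and 89.7 cpm in deep sh1Control and 83.7, 92.7 and 87.4 cpm in deep shD3 #1, with overlap and a log2 fold change of -0.031 ± 0.047, adjusted p = 0.583. In the first table it stood at 2.34, 1.80 and 2.52 cpm in sh1Control and 3.01, 2.98 and 1.93 cpm in shD3 #1, at 1.86, 1.34 and 1.37 cpm in sh4Control and 1.65, 2.29 and 1.78 cpm in shD3 #4, and at 1.96 and 1.25 cpm in siControl and 0.944, 1.43 and 1.74 cpm in siD3 #3, which rests on 18 to 56 counts a library. In GENCODE 44, 54.41% of its exonic bases are shared with another gene on the same strand (ENSG00000285238), so that reads there could be left uncounted.

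Of the abundant nucleolar proteins, nucleophosmin (*NPM1*), a chaperone of ribosomal proteins and histones, stood at 759.7, 680.2 and 697 cpm in sh1Control and 569, 552 and 692 cpm in shD3 #1, at 837, 836 and 718 cpm in sh4Control and 501, 593 and 531 cpm in shD3 #4, and at 839.8 and 917 cpm in siControl and 432, 477 and 463 cpm in siD3 #3. In shD3 #1 replicate 3 lay within the range of the controls, and the other groups did not overlap. The log2 fold changes were -0.24 ± 0.078, -0.56 ± 0.076, -0.94 ± 0.10 and, deep, -0.34 ± 0.050 (adjusted p = 0.0164, 1.74e-06, 4.21e-04 and 3.09e-05). *NPM1* has 49 pseudogenes named after it in GENCODE 44, so that its reads can be split among copies. Nucleolin (*NCL*), which opens and packs rDNA chromatin, stood at 398, 383 and 376 cpm in sh1Control and 292, 313 and 232 cpm in shD3 #1, at 363, 420.0 and 362 cpm in sh4Control and 282, 362 and 305 cpm in shD3 #4, and at 301 and 262 cpm in siControl and 155, 192 and 158 cpm in siD3 #3. In shD3 #4 replicate 2 lay just below the lowest control. For *NCL* the log2 fold changes were -0.46 ± 0.085, -0.27 ± 0.080, -0.74 ± 0.12 and, deep, -0.29 ± 0.049 (adjusted p = 2.16e-04, 0.00789, 0.00321 and 1.09e-04).

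The RNA helicase *DDX21* was the second highest of the 47 in shD3 #1 and the highest in the deep libraries. It stood at 331, 323 and 323 cpm in sh1Control and 392, 405 and 436 cpm in shD3 #1, at 337, 339 and 314 cpm in sh4Control and 269.8, 278 and 262 cpm in shD3 #4, and at 402 and 345 cpm in siControl and 253, 261 and 299.9 cpm in siD3 #3. The deep libraries held 184, 186 and 176 cpm in deep sh1Control and 218, 244 and 230.1 cpm in deep shD3 #1. Both sets of shD3 #1 libraries lay above their controls, and both other knockdowns below. The log2 fold changes were 0.33 ± 0.058, adjusted p = 1.35e-04 in shD3 #1, -0.29 ± 0.064, adjusted p = 6.31e-04 in shD3 #4, -0.46 ± 0.12, adjusted p = 0.0185 in siD3 #3 and 0.34 ± 0.047, adjusted p = 1.67e-05 deep. *MYBBP1A*, a repressor of rDNA transcription, was higher in shD3 #1 (0.20 ± 0.069), lower in shD3 #4 (-0.43 ± 0.074) and the deep libraries (-0.22 ± 0.057), and -0.18 ± 0.12 in siD3 #3.

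**Figure D3:**
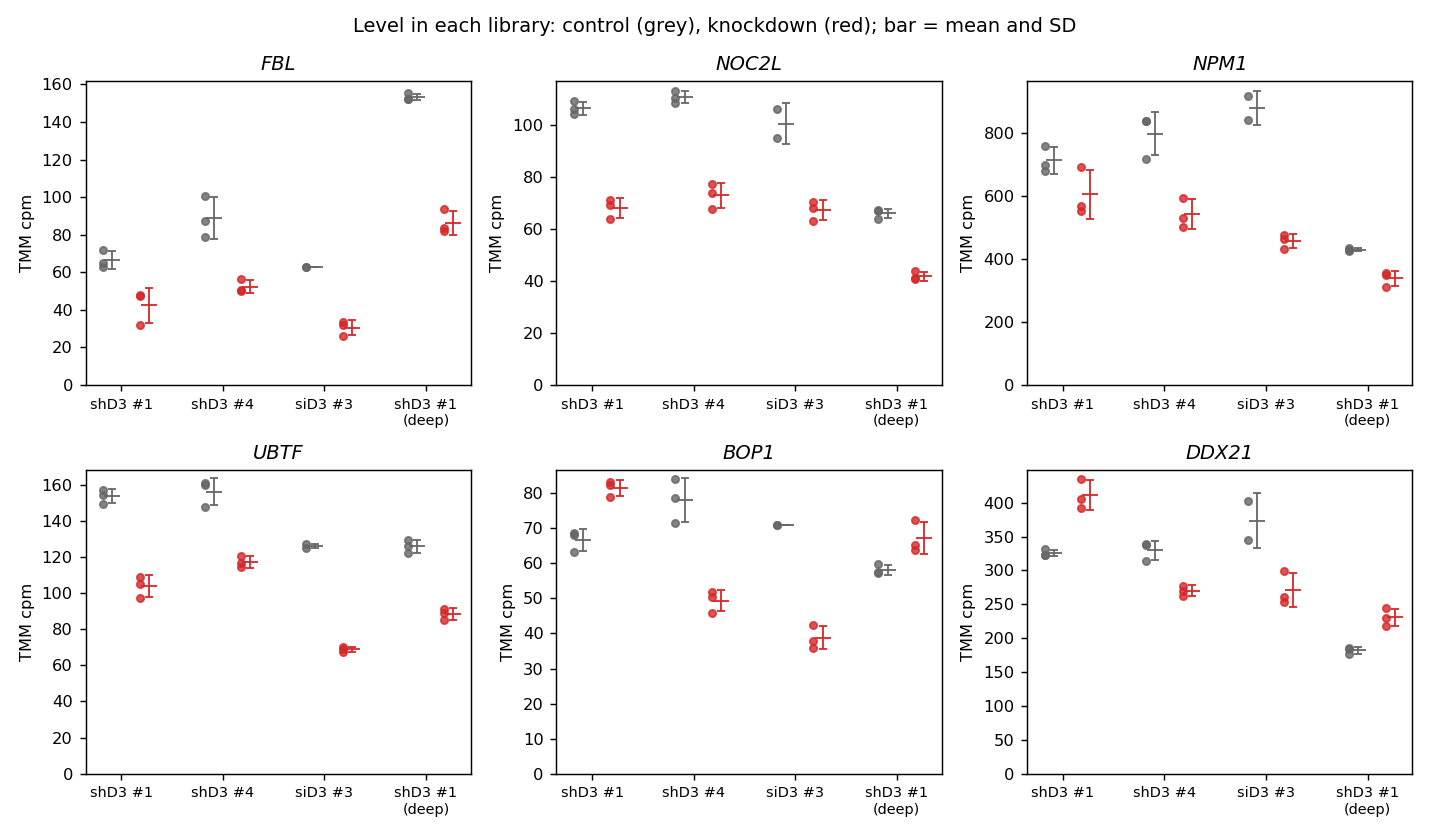
Level of 6 genes in each library (points; vertical axis, TMM-normalised cpm; horizontal axis, comparison), for controls (grey) and knockdowns (red), with the mean and SD of each group beside them. *FBL*, *NOC2L* and *UBTF* are lower in every knockdown without overlap, shD3 #1 replicate 3 of *NPM1* lies among its controls at 692 cpm, and *BOP1* and *DDX21* are higher than their controls only with shD3 #1.

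Whether the shRNAs differed was tested as a difference of their log2 fold changes in a fit of all 17 libraries. *THUMPD3* itself was at 51.3% of its controls with shD3 #1 and at 31.4% with shD3 #4, and the part of that in the differences was not tested. The difference of log2 fold changes (shD3 #1 minus shD3 #4) had a median of 0.23 over the 47, against -0.044 over all genes tested. It was higher for 21 genes at the adjusted p (19.6% of all 18672 genes) and lower for 1, *UTP18* (-0.31 ± 0.10, adjusted p = 0.0169), where 19.8% of all genes were. Past both thresholds it was higher for 6 (12.1%) and lower for 0 (13.8%). These were *BOP1* (0.95 ± 0.11, adjusted p = 6.00e-07), *PES1* (0.87 ± 0.098, adjusted p = 6.35e-07), *RRP9* (0.69 ± 0.14, adjusted p = 4.36e-04), *DDX10* (0.65 ± 0.13, adjusted p = 5.87e-04), *MYBBP1A* (0.63 ± 0.13, adjusted p = 5.87e-04) and *DDX21* (0.62 ± 0.11, adjusted p = 8.51e-05). The last of them were near the fold threshold. *DDX10* came to 0.57 without shD3 #4 replicate 3, *DDX21* to 0.58 without shD3 #1 replicate 3, and *MYBBP1A* to 0.58 without sh1Control replicate 1 and 0.57 without shD3 #4 replicate 2.

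The levels behind these differences lay on both sides of the controls. *RRP9* stood at 14.8, 13.9 and 17.04 cpm in sh1Control and 17.6, 16.2 and 16.6 cpm in shD3 #1, with overlap, and at 19.6, 18.8 and 15.99 cpm in sh4Control and 12.2, 11.9 and 13.1 cpm in shD3 #4, without. *DDX10* stood at 36.3, 39.2 and 38.8 cpm in sh1Control and 42.5, 42.5 and 47.7 cpm in shD3 #1 and at 40.97, 39.2 and 37.3 cpm in sh4Control and 28.4, 32.5 and 25.7 cpm in shD3 #4, and *MYBBP1A* at 90.7, 98.3 and 104 cpm in sh1Control and 117, 116 and 104 cpm in shD3 #1 and at 92.1, 92.7 and 101 cpm in sh4Control and 67.6, 63.8 and 79.8 cpm in shD3 #4. *DDX10* and *MYBBP1A* were above their controls with shD3 #1 and below them with shD3 #4. For 7 members the adjusted p called a rise in shD3 #1 and a fall in at least 1 other knockdown (*BOP1*, *DDX10*, *DDX21*, *MYBBP1A*, *PES1*, *UTP6* and *WDR75*; 6.83% of all genes did so), and the difference between the shRNAs passed the adjusted p for *UTP6* (0.58 ± 0.099, adjusted p = 9.34e-05) and *WDR75* (0.43 ± 0.10, adjusted p = 0.00168) too. For *FBL* (0.13 ± 0.17, adjusted p = 0.597), *NOC2L* (-0.043 ± 0.099, adjusted p = 0.768), *DKC1* (0.034 ± 0.11, adjusted p = 0.840) and *TCOF1* (0.094 ± 0.12, adjusted p = 0.580) no difference was called.

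**Figure D4:**
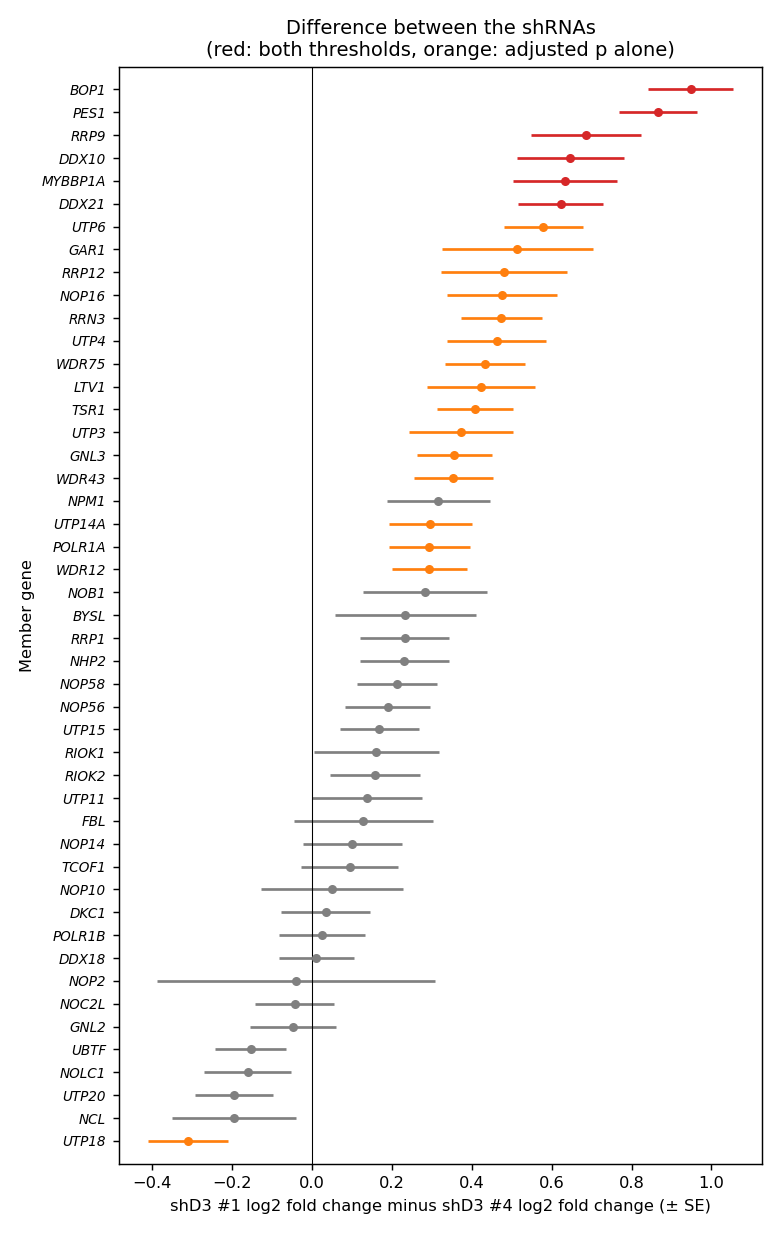
Difference between the log2 fold changes of shD3 #1 and shD3 #4 (horizontal axis, points with SE bars) for each of the 47 genes (vertical axis), sorted, from the fit of all 17 libraries. The 6 genes past both thresholds (red) run from 0.62 for *DDX21* to 0.95 for *BOP1*, and *UTP18*, at -0.31, is the only called gene below 0.

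The effect of the siRNA was also set against the mean of both shRNAs in that fit, which uses the same shRNA libraries as the difference above. The median over the 47 was -0.22, against 0.027 over all genes. At the adjusted p, 18 were lower (14.6%) and 3 higher (14.5%), namely *UTP3* (0.53 ± 0.13, adjusted p = 0.00303), *RRP12* (0.41 ± 0.15, adjusted p = 0.0412) and *RRN3* (0.31 ± 0.095, adjusted p = 0.0182). Past both thresholds, 1 was lower (7.12%), *BOP1* (-0.67 ± 0.10, adjusted p = 2.88e-05), and 0 were higher (9.43%). *WDR12* (-0.58 ± 0.087), *GNL3* (-0.56 ± 0.088), *TCOF1* (-0.55 ± 0.11) and *NPM1* (-0.53 ± 0.12) came next. Without siControl replicate 2, 5 genes were lower past both thresholds. The siRNA and shRNA cells differed in method, harvest day, controls and depth of the knockdown (*THUMPD3* at 17.1% of its controls with siD3 #3), which cannot be told apart here.

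The deep libraries repeat the shD3 #1 comparison in another table. Of the 16 genes lower in the first shD3 #1 libraries, all 16 were lower in the deep ones, and of the 9 that were higher, 4 were higher again (*BOP1*, *DDX10*, *DDX21* and *UTP6*) and 2 were lower (*MYBBP1A* and *PES1*). Of all 4159 matched genes lower in the first shD3 #1 libraries, 76.8% were lower and 3.85% higher in the deep ones, and of the 4302 that were higher, 78.1% were higher again and 4.39% were lower. *GNL3*, *LTV1*, *NHP2*, *NOP10*, *NOP14*, *NOP16*, *RRP1*, *RRP9*, *UTP14A* and *UTP3* were lower in the deep libraries alone of the pair. The SE was smaller in the deep libraries for *FBL* (-0.83 ± 0.051 against -0.63 ± 0.11) and *NCL* (-0.29 ± 0.049 against -0.46 ± 0.085), and larger for *RRN3* (0.086 ± 0.36 against 0.0046 ± 0.070).

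**Figure D5:**
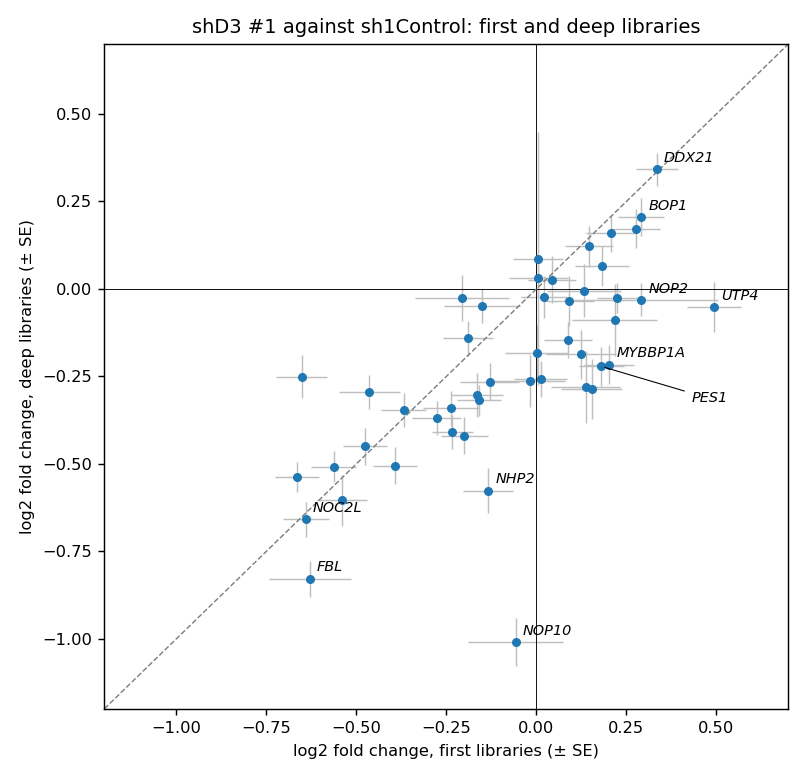
The log2 fold change of the 47 genes in the first shD3 #1 libraries (horizontal axis) and in the deep ones (vertical axis), with SE bars and the line of equal values (dashed). *DDX21*, *BOP1*, *FBL* and *NOC2L* keep their side of 0, *PES1* and *MYBBP1A* lie on opposite sides, and *NOP10* is at -1.01 in the deep libraries alone.

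Levels in control cells, compared as cpm per kilobase of exon and averaged over the 3 first control groups, spanned a wide range. *NPM1* was the highest at 95.8, followed by *NHP2* at 56.7, *NOLC1* at 41.7, *NCL* at 39.2 and *DDX21* at 37.0. *NHP2* is short, and 28.05% of its exonic bases lie opposite *RMND5B*. *FBL* ranked 8 at 34.1, and its 3 control groups ran from 29.5 (siControl) to 41.6 (sh4Control), so that its place among *GNL3* (34.7), *WDR43* (34.3) and *NOP56* (33.4) was not separated by that spread. Apart from *NOP2*, the lowest on this scale were *DDX10* at 2.21, *UTP4* at 3.60 and *GAR1* at 4.19. The length used was that of all annotated exons of a gene merged, which can be longer than a single transcript. It was 18059 bases for *DDX10*, 5600 for *UTP4* and 1964 for *GAR1*, and all ranks here depend on it. In cpm without that division, *DDX10* stood above *UTP4* and *GAR1* in sh1Control. Its place below them thus rested on the length.

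Several of the genes carry small nucleolar RNAs in their own bodies. In GENCODE 44, 25 snoRNA genes lie within 7 members on the same strand: *DKC1*, *GNL3*, *NCL*, *NOP56*, *NOP58*, *TSR1* and *WDR43*. Among them are *SNORD56* and *SNORD57* in *NOP56* and *SNORA36A* and *SNORA56* in *DKC1*. Reads of a snoRNA that overlaps an exon of its host could not be told from the host's. The opposite strand holds other exons over at least 10% of the exonic bases of 5 members (*NHP2*, *NOB1*, *NOP14*, *NOP16* and *TSR1*), and the strand setting of the counts is not given in the sources used here.

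The wider pathway was described with 123 further genes in 6 groups: other parts of the polymerase I machinery, further processome factors, further 60S factors, the exosome and rRNA trimming, late 40S factors with export, and snoRNP assembly. With shD3 #4, 95 fell (77.2%, against 20.8% of all genes) and 0 rose (20.0%) at the adjusted p. With siD3 #3, 73 fell (59.3%, against 16.4%) and 2 rose (16.6%). With shD3 #1, 33 fell (26.8%, against 27.8%) and 29 rose (28.6%), so that the falls were near the background. Of the 118 tested in the deep libraries, 57 fell (48.3%, against 31.5%) and 23 rose (31.1%). In the order shD3 #1, shD3 #4, siD3 #3 and deep, medians were 0.0063, -0.32, -0.36 and -0.12. Calls past both thresholds numbered 10 lower and 2 higher with shD3 #1, and 8 and 0 with shD3 #4. They numbered 25 and 1 with siD3 #3, and 10 and 0 in the deep libraries. In that order, the lower calls made up 8.13%, 6.50%, 20.3% and 8.47% of the list tested. Of all genes tested, 14.6%, 4.49%, 9.42% and 14.1% were lower. The list thus lay below the background in both sets of shD3 #1 libraries, near it in shD3 #4 and above it in siD3 #3. Higher past both thresholds were 2389 of all 16456 genes, 1320 of 16493, 2135 of 17032 and 2813 of 18763. Like the 47, the wider list had a median near 0 in shD3 #1 and below 0 elsewhere, and 24 of the 123 were lower at the adjusted p in all 3 first comparisons (6.14% of all genes), but 0 past both thresholds in all 3 (0.805%).

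The exosome, which trims the 3' ends of rRNA precursors, had the most genes lower past both thresholds of the 6 groups in siD3 #3, at 8 of 17, where 9.42% of all genes were. *EXOSC8* was the lowest, at -1.27 ± 0.16, adjusted p = 9.69e-04. In shD3 #1 and in the deep libraries the lowest was another exosome gene, *EXOSC5*, at -0.94 ± 0.094, adjusted p = 3.79e-07 and -1.47 ± 0.072, adjusted p = 3.10e-10. In shD3 #4 it was *ERI1*, at -0.67 ± 0.071, adjusted p = 3.27e-08, a 3' exonuclease. Of the snoRNP assembly genes, the ATPase *RUVBL2* was the lowest in shD3 #4 (-0.60 ± 0.063, adjusted p = 2.43e-08) and siD3 #3 (-0.84 ± 0.081, adjusted p = 2.46e-04), and *PIH1D1*, a subunit of the R2TP complex with it, the lowest in shD3 #1 (-0.64 ± 0.070, adjusted p = 1.21e-06) and the deep libraries (-0.84 ± 0.061, adjusted p = 2.18e-08).

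Of the further processome factors, *NOL10* was the lowest of all 123 genes in shD3 #1 (-1.0 ± 0.066, adjusted p = 3.48e-09) and of its group in the deep libraries (-0.59 ± 0.062, adjusted p = 1.06e-06). *HEATR1* was the lowest of the group in siD3 #3 (-0.65 ± 0.13, adjusted p = 0.00756) and *NOC4L* in shD3 #4 (-0.47 ± 0.092, adjusted p = 2.08e-04). Of the 60S factors, *RSL24D1* was the lowest in shD3 #1 (-0.79 ± 0.080, adjusted p = 5.43e-07), *EBNA1BP2* in shD3 #4 (-0.66 ± 0.068, adjusted p = 1.94e-08), *URB2* in siD3 #3 (-0.92 ± 0.11, adjusted p = 6.68e-04) and *SENP3* in the deep libraries (-1.05 ± 0.20, adjusted p = 4.02e-04). *MAK16* was the highest in shD3 #1 (0.69 ± 0.075, adjusted p = 1.06e-06). In the polymerase I machinery, *TAF1B* of the promoter factor SL1 was the lowest in shD3 #1 (-0.75 ± 0.095, adjusted p = 5.55e-06), and the subunits *POLR1G* in shD3 #4 (-0.71 ± 0.084, adjusted p = 2.02e-07) and *POLR1E* in siD3 #3 (-0.86 ± 0.11, adjusted p = 9.01e-04). *POLR1C*, shared by polymerases I and III, was the highest in shD3 #1 (0.63 ± 0.095, adjusted p = 3.26e-05). Of the late 40S group, *FCF1* was the lowest in shD3 #1 (-0.60 ± 0.083, adjusted p = 1.44e-05) and the deep libraries (-0.79 ± 0.059, adjusted p = 2.74e-08) and the methyltransferase *DIMT1* in siD3 #3 (-0.83 ± 0.096, adjusted p = 6.43e-04), whereas the kinase *RIOK3* was the 1 gene of the 123 that rose past both thresholds in siD3 #3 (1.21 ± 0.11, adjusted p = 1.48e-04).

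Most markers of dividing cells were lower as well. Of 15 proliferation genes, 11 were lower past both thresholds in shD3 #1 (14.6% of all genes, median -0.76) and 7 in shD3 #4 (4.49%, median -0.47). In siD3 #3 all 15 were (9.42%, median -2.79). In the deep libraries 3 were (20%, against 14.1% of all genes, median -0.37), and 9 were lower at the adjusted p (31.5%). Their summed level was 3498 to 3636 cpm in sh1Control and 1700.5 to 1818 in shD3 #1, 3552 to 3664 in sh4Control and 2479 to 2716 in shD3 #4, 3276 to 3322 in siControl and 477 to 624 in siD3 #3, and 4104 to 4190 in the deep controls and 2815 to 2944 in the deep knockdown. Beside these, the median of the 47 was 0.00057 in shD3 #1, -0.37 in shD3 #4, -0.45 in siD3 #3 and -0.22 in the deep libraries. The part of cell division in the levels of the 47 was not tested. *MYC* itself stood at 79.9, 76.2 and 82.3 cpm in sh1Control and 93.7, 96.5 and 98.4 cpm in shD3 #1 (0.27 ± 0.061, adjusted p = 0.00125), at 85.5, 81.8 and 75.3 cpm in sh4Control and 67.8, 72.4 and 70.7 cpm in shD3 #4 (-0.20 ± 0.066, adjusted p = 0.0148), at 110.1 and 87.8 cpm in siControl and 74.5, 82.3 and 87.5 cpm in siD3 #3 (-0.28 ± 0.12, adjusted p = 0.110), and deep at -0.14 ± 0.070 (adjusted p = 0.0850). *MYC* was thus higher with shD3 #1, lower with shD3 #4, and not called in the other comparisons. The MAX partners that oppose it did not move one way. At the adjusted p, *MXD1*, *MXD4*, *MXI1* and *MNT* were higher in siD3 #3 (2.25 ± 0.17, 1.34 ± 0.13, 0.66 ± 0.17 and 0.60 ± 0.13) and *MXD3* lower (-2.63 ± 0.17). In shD3 #1, *MXD1* and *MXD4* were higher (1.71 ± 0.15 and 0.48 ± 0.085) and *MXD3* and *MXI1* lower (-1.48 ± 0.10 and -0.45 ± 0.16). In shD3 #4, *MXD4* was higher (0.73 ± 0.073), and in the deep libraries *MXD1* was higher (1.08 ± 0.12) and *MXD3* and *MXI1* lower (-0.34 ± 0.077 and -0.87 ± 0.10).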

How the data were processed

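RNA from A549 cells, depleted of ribosomal RNA and made into directional libraries, was sequenced by the authors. They trimmed the reads (Trimmomatic 0.40) and aligned them with STAR 2.7.10a to GRCh38.p14, per the submitters' processing notes. The deposited values are counts of reads per gene, not normalised, in a table of 17 libraries with Ensembl identifiers and a table of 6 deep libraries with symbols. The strand setting is not given in the sources used here. Symbols, positions and exon lengths were taken from GENCODE 44 (GRCh38), although the release behind the counts may differ, and promoters from RefSeq (GRCh38.p14).

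Libraries were grouped by their titles. Genes were kept by filterByExpr (minimum count 10, minimum total 15), scaled by TMM and tested with edgeR 4.0.16 in R 4.3.3 by the quasi-likelihood test, each knockdown with its own controls, with Benjamini-Hochberg adjustment over all genes tested. The thresholds were an adjusted p of 0.05 and a change of 1.5-fold. Differences between knockdowns came from 1 fit of all 17 libraries. SE is the log2 fold change divided by the square root of the test's F. Values per library are counts scaled to a common library size by TMM (cpm). Alternatives were DESeq2 1.42.0, edgeR with size factors from DESeq2, a filter of 1 count only, a replicate block, 1 fit of all 17 libraries and leaving out each library in turn. The fit was tested on simulated data.

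The 47 genes, the lists and the tests were chosen with earlier results of these data known. Values per library were given for the 3 lowest and 3 highest of the 47 in each first comparison and for those lower at the adjusted p in all of them. Of the wider pathway, the genes named were the lowest of their group in a comparison, or among the highest. Values of *RRP9*, *DDX10*, *MYBBP1A* and *NOP10*, and promoter windows, were chosen after their values were seen, as was the naming of *MXD1*, *MXD3*, *MXD4*, *MXI1* and *MNT*. A further marker of other cells is not reported here.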

Additional observations from a re-analysis of the deposited data

Results flagged for a closer look

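The following differences between knockdowns passed both thresholds of edgeR's quasi-likelihood test of the difference itself (adjusted p over all genes tested). Between the shRNAs (log2 fold change of shD3 #1 minus that of shD3 #4), the difference was 0.95 ± 0.11, adjusted p = 6.00e-07 for *BOP1*, 0.87 ± 0.098, adjusted p = 6.35e-07 for *PES1*, 0.69 ± 0.14, adjusted p = 4.36e-04 for *RRP9*, 0.65 ± 0.13, adjusted p = 5.87e-04 for *DDX10*, 0.63 ± 0.13, adjusted p = 5.87e-04 for *MYBBP1A* and 0.62 ± 0.11, adjusted p = 8.51e-05 for *DDX21*. In the deep libraries, which hold shD3 #1 alone, *BOP1*, *DDX10* and *DDX21* were again higher than their controls (0.20 ± 0.054, 0.16 ± 0.053 and 0.34 ± 0.047), whereas *PES1*, *RRP9* and *MYBBP1A* were lower (-0.22 ± 0.056, -0.28 ± 0.10 and -0.22 ± 0.057). Between the siRNA and the mean of both shRNAs, *BOP1* differed by -0.67 ± 0.10, adjusted p = 2.88e-05.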

How the results depend on the processing

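Of 378 values of counts and medians over the 47 genes or the wider pathway, recomputed under the alternatives, 352 stayed within the limits set for calling them alike (1.5-fold for a count) and 26 moved. Of the values for single genes, 3964 did not change in whether they passed both thresholds together. A further 51 came to pass both, and 17 no longer did. Calls lost or gained at the adjusted p alone are not part of these numbers. Among these single genes, 0 values past the adjusted p changed sign. In 1 fit of all 17 libraries, 5 of the 47 were higher in shD3 #1 at the adjusted p, not 9. For the siRNA minus the mean of the shRNAs, where 1 gene was lower past both thresholds, DESeq2 gave 2, its size factors in edgeR 2, the filter of 1 count 4 and the replicate block 2. The cause was not tested.

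Leaving out each library in turn moved the median of shD3 #1 between -0.047 (without shD3 #1 replicate 3) and 0.035 (without shD3 #1 replicate 2). It gave 4 to 8 genes lower past both thresholds in shD3 #4, 19 to 33 lower and 0 to 1 higher at the adjusted p in siD3 #3, 2 to 5 higher at the adjusted p in the deep libraries, and 1 to 5 lower past both thresholds for the siRNA minus the shRNAs. For the wider pathway it gave 1 to 3 genes higher in shD3 #1 (3 without shD3 #1 replicate 2), 6 to 13 lower in shD3 #4 (13 without sh4Control replicate 3) and 0 to 1 higher in the deep libraries. The numbers of all genes called also moved with the library left out.

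Replicate numbers were not taken to pair the libraries. Same-numbered control and knockdown libraries correlated, in their deviations from group means, at -0.080, 0.23 and 0.071 in shD3 #1, 0.11, 0.19 and 0.0077 in shD3 #4, 0.21 and -0.18 in siD3 #3, and -0.097, 0.083 and 0.028 in the deep libraries. With the replicate block *WDR12* in siD3 #3 came to -0.57, under the fold threshold. DESeq2's size factors shifted the median of all genes by at most 0.023. In siD3 #3 that median rose by 0.24 with DESeq2 and with the filter of 1 count alike, fits that test more genes of low count. Few reads were counted for *NOP2* in the first table (18 to 56 a library) and for *RRN3* in the deep table (10 to 37), and the cause was not tested.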

Other observations

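The deep table also lists 5 near-identical copies of the 45S ribosomal RNA precursor gene, *RNA45SN1* to *RNA45SN5*, in RNA from which ribosomal RNA had been removed. Their summed level was 14447, 14818 and 13444 cpm in the deep sh1Control libraries and 21163, 20792 and 15034 cpm in the deep shD3 #1 libraries. The groups did not overlap, and shD3 #1 replicate 3, the deep library that stood apart, was near the controls. The single copies had log2 fold changes of -0.56, -0.91, 0.57, 0.59 and 0.048. Reads cannot be assigned with certainty among such copies. Whether the counts include mature ribosomal RNA that escaped depletion is not known, so that the precursor's own level cannot be read from them.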
